A study of Mus musculus with 12 samples.

Results

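The genes described here are 10 genes used as markers of neurogenesis and cell proliferation: Dcx, Sox2, Sox4, Ccnd2, Stmn1, Neurod1, Mcm2, Pcna, Top2a and Igfbpl1. They were chosen by name, whatever their values, out of 18097 gene symbols on the array, and 13 probes carried these symbols. Their transcripts were measured in the hippocampus and cortex of male 3×TgAD mice. This Alzheimer's disease model carries neuronally driven transgenes for mutant human amyloid precursor protein and mutant human tau together with a mutant presenilin allele, and the vehicle-treated mice carried all of them too. Mice received amitriptyline (AMI), a tricyclic antidepressant, at 100 µg per g of body weight in the drinking water for 4 months, from 14 to 18 months of age, or plain water as vehicle. Per the study's methods, both treatment groups were also injected with BrdU, a label of dividing cells, during that period. Each of the 4 groups (hippocampus vehicle, hippocampus AMI, cortex vehicle and cortex AMI) held 3 arrays. Which mice gave the RNA of an array is not stated, so the spread between arrays of a group may be partly technical. There were no wild-type arrays, so every comparison lies within 3×TgAD tissue.

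New neurons are made in the adult mouse brain in the subgranular zone of the dentate gyrus and in the subventricular zone that lines the lateral ventricle. Radial glia-like stem cells give rise to dividing progenitors, these to neuroblasts, and these to immature neurons. Sox2 is a transcription factor of the stem cells and is also expressed by astrocytes. Sox4 and Neurod1 are transcription factors of the step to neurons. Ccnd2 encodes cyclin D2, which drives the entry of progenitors into the cell cycle. Mcm2 is a subunit of the replicative helicase, Pcna is the sliding clamp of DNA polymerase, and Top2a is the topoisomerase that untangles DNA before mitosis. Dcx, a microtubule-binding protein of neuroblasts, and Stmn1, a protein that destabilises microtubules, mark immature neurons, while mature neurons keep some Stmn1. Igfbpl1 encodes an insulin-like growth factor binding protein-like protein found in immature neurons.

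The arrays carried 3 probes for Dcx, 2 for Sox2 and 1 for each of the other 8 genes, each probe being 50 bases long. The build of the probe coordinates is not named in the annotation. Both readable Dcx probes, ILMN_1228206 at chrX:140290607-140290656 and ILMN_2931623 at chrX:140290665-140290714, lie side by side on the minus strand near the end of the long 3′ untranslated region, from transcript positions 8692 and 8634. The remaining Dcx probe, ILMN_1256251, lies upstream in the same transcript, from position 1230, at chrX:140298069-140298118. The Sox2 probe that was detected throughout starts at transcript position 997 within the coding sequence and has no coordinates in the annotation. Of the undetected genes, Sox4 (chr13:29044319-29044368, minus strand) and Top2a (chr11:98855664-98855713, minus strand) also had probes in the coding sequence. These coding probes are shown, in the sense direction, because the readings of Sox2, Sox4 and Top2a rest on them alone.
Sox2 ILMN_2656102: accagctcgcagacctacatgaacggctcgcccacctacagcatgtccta
Sox4 ILMN_2893417: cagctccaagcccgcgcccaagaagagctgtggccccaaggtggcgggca
Top2a ILMN_2830661: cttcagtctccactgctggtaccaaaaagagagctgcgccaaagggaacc

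A probe was counted as detected on an array where its deposited detection p was 0.05 or less. Only 5 of the 10 genes could be read: Dcx, Sox2, Ccnd2 and Stmn1 each had a probe detected on all 12 arrays, and Mcm2 was detected on 11 of 12. Sox4, Neurod1, Pcna, Top2a and Igfbpl1 were at or close to background. Over all 12 arrays, 49.0% to 51.7% of the 25697 probes were detected, so that about as many probes were undetected as detected. Undetected probes had a median signal of 52.2 to 63.3 on the hippocampal arrays and 65.1 to 73.2 on the cortical arrays.

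Of the genes of dividing cells, Top2a and Pcna were not detected and Mcm2 was close to background. Top2a gave signals of 48.6 to 64.9 in the hippocampus and 59.1 to 69.0 in the cortex, and was detected on 0 of 12 arrays, with detection p from 0.405 to 0.851. Pcna was also detected on 0 arrays, at 55.3 to 77.2 in the hippocampus and 57.8 to 80.4 in the cortex. Neither gene stood out from undetected probes, whose medians lie in the same range. Mcm2 was the one replication gene among the 10 that was detected, and it lay at only 1.42 to 1.65 times the median undetected signal in the hippocampus and 1.25 to 1.42 times it in the cortex. The array on which Mcm2 was not detected was cortex AMI replicate 2, with a detection p of 0.0714.

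The genes of the step to neurons gave 1 detection each at most. Sox4 was detected on hippocampus AMI replicate 3 alone (detection p from 0.0401 to 0.346 over the 12 arrays), and Neurod1 on hippocampus AMI replicate 1 alone (0.0401 to 0.628). Both detections lay close to the threshold, and the signals over all hippocampal arrays were 62.6 to 82.3 for Sox4 and 64.7 to 83.4 for Neurod1. The Neurod1 signal of the detecting array was at the low end of that range. Igfbpl1 was detected on 0 arrays, at 52.0 to 64.4 in the hippocampus and 68.5 to 90.4 in the cortex. For these genes the arrays give no measured level.

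Probes of the same gene disagreed in what they could read. Dcx was detected on all 12 arrays by ILMN_1228206 and ILMN_2931623, but on 0 arrays by ILMN_1256251, whose signals were 46.6 to 58.5 in the hippocampus and 60.5 to 68.8 in the cortex. Both readable Dcx probes moved together, with a Pearson correlation of 0.975 over 12 arrays and of 0.808 once the 4 group means were removed. Arrays that share a tissue carry much of the first value. Of the Sox2 probes, the coding probe was detected on 12 arrays and ILMN_1248711 in the 3′ untranslated region on 1, hippocampus AMI replicate 1.

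**Figure D1:**
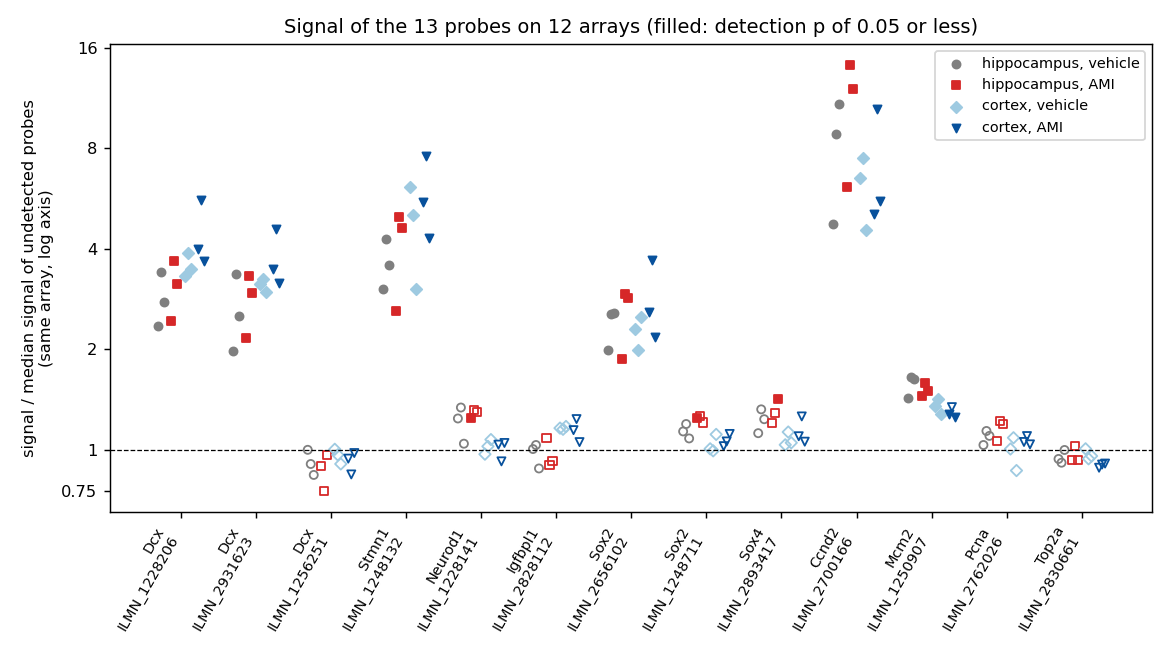
Signal of each of the 13 probes (x axis, by gene and probe) on 12 arrays, divided by the median signal of undetected probes on the same array (y axis, log scale, no unit), with filled symbols where the probe was detected and the dashed line at the background median. The probes of Dcx (2 of 3), Stmn1, Sox2 (1 of 2), Ccnd2 and Mcm2 lie above the line in all 4 groups, Mcm2 the least, at 1.25 to 1.65 times the background median. The other 7 probes lie at 0.752 to 1.42 times it, and of these Sox4 is also above the line on every array (1.03 to 1.42).

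The study asked whether AMI acts on neurogenesis, and none of the readable genes passed the test between AMI and vehicle in the hippocampus. Ccnd2 had the largest estimate, 0.29 higher in AMI on the log2 scale (standard error 0.21), while Dcx, Sox2 and Stmn1 differed by 0.02 to 0.06 and Mcm2 by -0.08. All differences are of z-normalized log2 signals, which place every array on a common centre and spread. Testing took the probes detected on 3 or more of a tissue's 6 arrays, by limma with Benjamini-Hochberg adjustment over all of them. In the hippocampus 13163 probes were tested, of which 0 passed an adjusted p of 0.05 (0.0%), and the 6 readable probes of these genes gave 0 calls. In this fit, which took the arrays as unpaired, 309 probes in all (2.35%) and 0 of these 6 had an unadjusted p under 0.05. Treatment groups without overlap, found for 7.89% of all tested probes, were found for 0 of these 6. The undetected Pcna probe, read at background and not tested, had normalized AMI values above every vehicle value (a difference of 0.06).

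Dcx gave in the hippocampus signals of 137, 213 and 172 on vehicle replicates 1, 2 and 3 and of 127, 233 and 176 on the AMI replicates by ILMN_1228206. By ILMN_2931623 the signals were 115, 209 and 156 in vehicle and 113, 210 and 166 in AMI. The treatment groups overlapped fully on both probes, and replicate 2 was the brightest array of each group. After normalization the AMI difference was 0.05 (95% interval -0.20 to 0.30, adjusted p = 0.9996 by limma) and 0.06 (-0.27 to 0.39, adjusted p = 0.9996). In fold of signal these intervals ran from 0.868 to 1.24 by the first probe and from 0.830 to 1.31 by the other. Background was not subtracted, so the intervals bound a change of the signal and not of the transcript. A change of signal within them cannot be told from the spread of 3 arrays.

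Ccnd2 had the widest spread of the 6 probes over the hippocampal vehicle arrays. Its hippocampal signals were 279, 551 and 675 in vehicle and 319, 898 and 676 in AMI, so that the groups overlapped. The difference of 0.29 had a 95% interval of -0.19 to 0.77 (adjusted p = 0.9996 by limma). Over all tested probes, deviations from the group mean correlated between hippocampal arrays of the same replicate number at 0.61, 0.30 and 0.29. AMI replicate 3 correlated almost as much with vehicle replicate 2 (0.28), so the pairing is uncertain beyond pair 1. By number the AMI array lay above the vehicle array by 0.46 in pair 1 and 0.44 in pair 2, and differed by -0.03 in pair 3. With the replicate number as a block the interval was 0.03 to 0.55, which excludes 0, and the adjusted p by limma was 0.609. In that fit 1063 of 13163 probes had an unadjusted p under 0.05, against 309 in the main, unpaired fit. Its smallest adjusted p over all probes was 0.178 by limma. The cyclin D2 transcript was therefore not called under either fit. The estimate depended on single arrays, being 0.07 without vehicle replicate 1, where that of Mcm2 was larger in size at -0.10, and 0.49 without vehicle replicate 3.

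Stmn1 signals in the hippocampus were 177, 268 and 222 in vehicle and 136, 316 and 260 in AMI, and the AMI difference was 0.04 (-0.28 to 0.36, adjusted p = 0.9996 by limma). The AMI arrays held both the lowest and the highest signal. For the coding probe of Sox2 the signals were 117, 159 and 159 in vehicle and 97.4, 185 and 160 in AMI, with a difference of 0.02 (-0.24 to 0.28). Mcm2 was read at 83.5, 103 and 101 in vehicle and at 75.4, 100.4 and 83.9 in AMI, with a difference of -0.08 (-0.30 to 0.13). Over the 6 probes the median difference was 0.04, beside 0.01 over all probes tested, and 5 of 6 lay above 0 where 55.0% of all tested probes did. In the same arrays the 8 tested markers of mature oligodendrocytes all lay below 0 after AMI, with a median of -0.49 and 0 calls (4 at an unadjusted p under 0.05). Their summed level, of z-normalized values taken back from the log2 scale, was 153 to 282 in AMI and 204 to 388 in vehicle. The 4 tested markers of the choroid plexus also lay below 0 there, with a median of -0.93, 0 calls and a summed level of 12.5 to 23.9 in AMI and 17.5 to 240 in vehicle. The part of either cell type in the values of the neurogenesis genes was not tested.

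In the cortex 12944 probes were tested, 0 of all and 0 of these were called (0.0%), and Dcx was higher on every AMI array than on any vehicle array by both probes. Its signals by ILMN_1228206 were 228, 264 and 233 in vehicle and 276, 410 and 240 in AMI, and the normalized difference was 0.19 (standard error 0.10, 95% interval -0.05 to 0.42, adjusted p = 0.796 by limma), or 0.11 without vehicle replicate 1. By ILMN_2931623 the signals were 216, 221 and 198 in vehicle and 241, 336 and 205 in AMI, with a difference of 0.15 (standard error 0.09, adjusted p = 0.808). These groups do not overlap after normalization, although the signals before it do. Groups that do not overlap with AMI higher were found for 1048 of all tested probes (8.1%).

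Of the tested genes, Mcm2 also had groups without overlap after normalization, with a difference of -0.10 on the AMI arrays (standard error 0.08, adjusted p = 0.885 by limma), with signals of 92.9, 96.5 and 85.3 in vehicle and 88.5, 98.1 and 81.5 in AMI that overlapped before it. Among the undetected probes, those of Top2a and Igfbpl1 also had normalized AMI values below every vehicle value, as readings at background that were not tested. The share of undetected probes on the array without overlap was not computed. In all, 3 of the 6 tested probes had groups without overlap, both of the Dcx probes being of 1 gene, beside 12.2% of all probes tested (4.13% with AMI lower). At an unadjusted p under 0.05 there were 0 of these 6, beside 6.28% of all. This helicase subunit sat so near background that its signal barely exceeded that of undetected probes on each of these arrays.

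Sox2 signals in the cortex were 158, 136 and 167 in vehicle and 178, 271 and 141 in AMI, a difference of 0.20 (-0.13 to 0.52) that was 0.08 without AMI replicate 2, 0.10 when vehicle replicate 2 was left out, and 0.30 when replicate 3 of either group was. Stmn1 signals were 419, 342 and 203 in vehicle and 382, 554 and 281 in AMI, a difference of 0.21 (-0.26 to 0.68). Its low array was vehicle replicate 3, and without that array the difference was -0.04. Ccnd2 signals were 447, 508 and 305 in vehicle and 351, 766 and 361 in AMI, with a difference of 0.01 (-0.42 to 0.44) that was -0.15 without AMI replicate 2 and -0.14 without vehicle replicate 3. The groups of Sox2, Stmn1 and Ccnd2 overlapped. Over the 6 probes the median difference was 0.17, beside 0.02 over all probes tested, and 5 of 6 lay above 0 where 57.1% of all tested probes did. Markers of the striatum were tested for 5 genes on the same arrays. Of these, 1 of 5 lay above 0 after AMI, the median was -0.30 with 0 calls and 2 at an unadjusted p under 0.05, and the summed level was 24.2 to 35.4 in AMI and 37.3 to 41.2 in vehicle. Whether that shift bears on the cortical values of Dcx was not tested.

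By the call rule of the study's methods, which asks for a z ratio of at least 1.5 in size, a p up to 0.05 and a false discovery rate below 0.3, 0 of these probes were called in either tissue with p and false discovery rate taken from limma. Over all probes these cutoffs on limma's values made 0 hippocampal calls (0.0%) and 3 cortical calls (0.0232%). With the methods' t-test the smallest adjusted p over all cortical probes was 0.635, so that the cutoff on the false discovery rate left 0 calls there. Whether the AMI difference itself depended on the tissue was tested as an interaction over 12430 probes readable in both. There were 0 calls among all probes (0.0%) and 0 among these, with 377 (3.03%) and 0 at an unadjusted p under 0.05. Ccnd2 had the largest interaction, 0.26 more in the hippocampus (standard error 0.31, and from 0.05 without hippocampus vehicle replicate 1 to 0.45 without hippocampus vehicle replicate 3), and the other 5 probes lay between -0.19 and 0.03, each at an adjusted p of 0.9999 by limma.

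**Figure D2:**
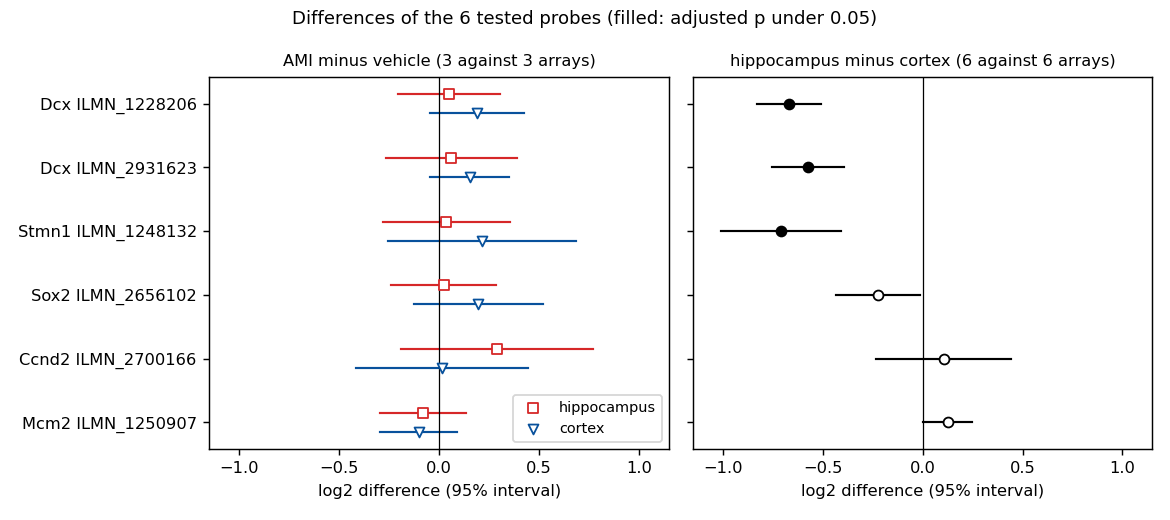
Log2 difference with 95% interval (x axis) for the 6 tested probes (y axis), AMI minus vehicle in each tissue on the left (3 against 3 arrays) and hippocampus minus cortex on the right (6 against 6 arrays), filled where the adjusted p was under 0.05. Each of the 12 treatment intervals includes 0, whereas the tissue differences of Dcx (-0.67 and -0.57) and Stmn1 (-0.71) are set apart from it.

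Between the tissues, the immature neuron genes Dcx and Stmn1 were lower in the hippocampus than in the cortex. Dcx was at 0.629-fold and 0.671-fold of the normalized cortical signal by its pair of probes (log2 differences of -0.67 and -0.57, standard errors 0.07 and 0.08), and Stmn1 at 0.612-fold (-0.71, standard error 0.14). Background was not subtracted, so these are folds of signal. Sox2, Mcm2 and Ccnd2 did not pass the test. All 12 arrays were fitted together for 13677 probes, of which 43.1% were called, 18.7% lower and 24.4% higher in the hippocampus, so that a call is common in this comparison. Of the readable genes 2 of 5 were called, both lower, with 3 of 6 probes.

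Dcx levels ordered the 4 groups as hippocampus vehicle (0.27 ± 0.14, SD, n = 3), hippocampus AMI (0.32 ± 0.08), cortex vehicle (0.87 ± 0.14) and cortex AMI (1.07 ± 0.10) by ILMN_1228206, in z-normalized log2 units in which 0 is the mean of all probes of an array. The treatment groups of a tissue were neighbours that did not differ beyond the test, whereas the highest hippocampal array, at 0.44, lay below the lowest cortical array, at 0.70. By ILMN_2931623 the order was the same, from 0.14 ± 0.26 and 0.19 ± 0.10 in the hippocampus to 0.66 ± 0.04 and 0.82 ± 0.08 in the cortex. The tissue difference was -0.67 (95% interval -0.83 to -0.51, adjusted p = 1.91e-05 by limma) by the first probe and -0.57 (-0.75 to -0.40, adjusted p = 1.40e-04) by the other. Tissues that do not overlap, with the hippocampus lower, were found for 8.87% of all tested probes. Expressed over the median of undetected probes instead, Dcx was at 2.34 to 3.68 in the hippocampus and at 3.32 to 5.60 in the cortex by ILMN_1228206, and these ranges do overlap.

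Stmn1 was at 0.62 ± 0.11 in hippocampus vehicle, 0.65 ± 0.24 in hippocampus AMI, 1.23 ± 0.48 in cortex vehicle and 1.46 ± 0.16 in cortex AMI. Cortex vehicle replicate 3, at 0.69, lay among the hippocampal arrays (0.38 to 0.80), while the other 5 cortical arrays were at 1.28 or above. The difference was -0.71 (-1.01 to -0.41, adjusted p = 0.00136 by limma) and -0.85 without that array. In the vehicle arrays alone it was -0.60 with an adjusted p of 0.0760, and in the AMI arrays alone -0.82 with an adjusted p of 0.00329. Dcx was called in each treatment by itself (adjusted p of 0.0103 and 0.0276 in vehicle and of 0.00107 and 0.00228 in AMI by the 2 probes).

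Sox2 was at 0.03 ± 0.09, 0.05 ± 0.16, 0.16 ± 0.21 and 0.37 ± 0.23 in hippocampus vehicle, hippocampus AMI, cortex vehicle and cortex AMI, and no neighbours in that order were apart by more than their spread. Its tissue difference was -0.22 (-0.43 to -0.01, adjusted p = 0.0800 by limma). With quantile normalization it was -0.30 with an adjusted p of 0.00484, so that this stem cell factor lay on either side of the threshold according to the scaling. Mcm2 was at -0.53 ± 0.03, -0.61 ± 0.08, -0.64 ± 0.08 and -0.75 ± 0.02 in the same groups, a tissue difference of 0.13 (0.00 to 0.25, adjusted p = 0.0898). Ccnd2 was at 1.66 ± 0.40, 1.93 ± 0.22, 1.69 ± 0.31 and 1.70 ± 0.34, and its difference of 0.11 (-0.23 to 0.44, adjusted p = 0.624) was within the spread of every group.

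**Figure D3:**
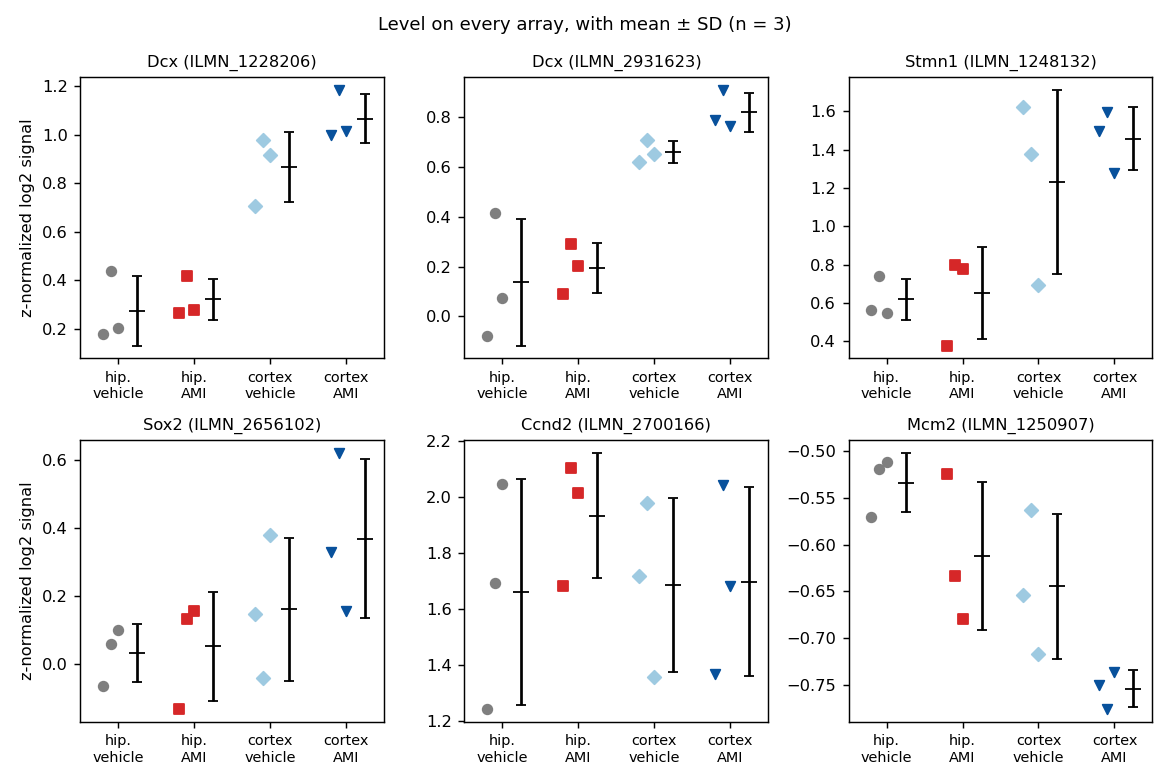
Level of the 6 tested probes on every array (y axis, z-normalized log2 signal, 0 being the mean of all probes of an array) by group (x axis, hip. being hippocampus), with the mean ± SD of 3 arrays beside the points. The hippocampal and cortical points of Dcx separate (0.44 and below against 0.70 and above by ILMN_1228206), 1 cortical vehicle array of Stmn1 lies at the hippocampal level, and those of Sox2 and Ccnd2 mix.

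The tissues were deposited in separate tables exported with different software, so that tissue and table cannot be told apart. Centring on the median instead of z normalization moved the median tissue difference of all probes from 0.03 to 0.19 and the split of higher against all calls from 3332 of 5891 to 4644 of 5482, while Dcx and Stmn1 were still called, at -0.52, -0.44 and -0.52. For the marker counts that follow, 24.4% of all tested probes were called higher and 18.7% lower in the hippocampus. Of the dentate granule cell markers 3 of 4 tested were higher in the hippocampus, among them Prox1 (1.17) and C1ql2 (3.22). Of the cortical projection neuron markers 4 of 5 were lower there, among them Tbr1 (-1.87) and Cux2 (-0.77), and Fezf2 was higher (0.81). Of the markers of astrocytes, which also express Sox2, 1 of 8 was higher (Gfap, 1.77) and 2 were lower in the hippocampus. Hippocampal neuron markers went both ways, with 2 of 5 higher and 2 lower. Microglial markers were higher in the hippocampus for 6 of 8 genes, and 2 of 6 endothelial markers were lower, all 6 lying below 0. The part of these cell types in the tissue differences of Dcx and Stmn1 was not tested. All 5 tested markers of the striatum were also lower in the hippocampus than in the cortex, among them Ppp1r1b at -2.49 and Rgs9 at -2.22. There was no striatal array, so whether the cortical samples held striatal tissue cannot be told. The summed level of these markers was 7.17 to 10.5 in the hippocampus and 24.2 to 41.2 in the cortex, without overlap, in the same direction as Dcx and Stmn1. The part of any striatal RNA in the difference of Dcx and Stmn1 was not tested, and in whole tissue fewer cells of a type and less RNA per cell cannot be told apart.

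The other genes of the pathway were given by 5 lists, each gene being read by its brightest probe, and none of their genes was called between AMI and vehicle in either tissue or in the interaction. At an unadjusted p under 0.05 there were 2 of 52 genes in the hippocampus, 2 of 48 in the cortex and 3 of 48 in the interaction by limma, where 2.35%, 6.28% and 3.03% of all tested probes did so. The medians of the lists' AMI differences lay between -0.03 and 0.12, beside 0.01 and 0.02 over all probes. Between the tissues 13 of 52 list genes were called higher and 10 lower in the hippocampus, beside 24.4% and 18.7% of all tested probes. Of 16 stem and progenitor genes, 9 could be tested in the hippocampus and 8 in the cortex, while 6 were detected on 0 arrays, among them the radial glial factor Pax6 and the intermediate progenitor factor Eomes. Between the tissues 2 of 9 were higher in the hippocampus, the receptor Notch1 (0.62) and its target Hes1 (0.46), and 1 was lower, the Notch target Hes5 (-0.47).

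Neuroblast and immature neuron genes other than Dcx and Stmn1 were readable for 15 of the 22 that were matched. Of these, 6 were called higher and 4 lower in the hippocampus, where 24.4% and 18.7% of all tested probes were. The tissue difference of Dcx was not shared by the list, whose median was 0.01 beside 0.03 over all probes. The transcription factors Bhlhe22 (1.33) and Neurod2 (0.69), which excitatory neurons keep, and the actin-regulating protein gene Marcksl1 (0.79) were higher. Dclk1, which encodes a kinase related to doublecortin, was lower by 0.81, as Dcx was.

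Of 19 replication and S phase genes, 11 could be read from hippocampal and 9 from cortical arrays. Of the 11 tested between the tissues, 3 were called higher and 3 lower in the hippocampus, beside 24.4% and 18.7% of all tested probes. The helicase subunit Mcm6 was higher by 0.63, and Tyms, the enzyme that makes thymidylate, by 0.34, whereas the helicase subunit Mcm4 (-0.31) and the licensing factor Cdt1 (-0.33) were lower. Mitosis genes were the least readable. Only 6 of 18 were tested in the hippocampus and 5 in the cortex, 0 were called between the tissues (2 of 6 at an unadjusted p under 0.05, beside 50.3% of all tested probes), and 10 were detected on 0 arrays, among them Cdk1, Ccna2, Ccnb1 and Ccnb2, the kinase and cyclins of mitotic entry. As with Top2a, the arrays thus give no level for most of these mitosis genes in either tissue.

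The D cyclins and cell cycle inhibitors, of which 11 of 15 were readable in each tissue, also divided. Of these, 2 were called higher and 2 lower in the hippocampus, beside 24.4% and 18.7% of all tested probes. The growth arrest gene Gadd45g (1.11) and the retinoblastoma gene Rb1 (0.51) were higher, and the transcription factor E2f1 (-1.16) and the cyclin-dependent kinase inhibitor Cdkn1a (-1.05) were lower. Ccnd2, which acts at the same step of the cell cycle, did not differ between the tissues beyond its spread.

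**Figure D4:**
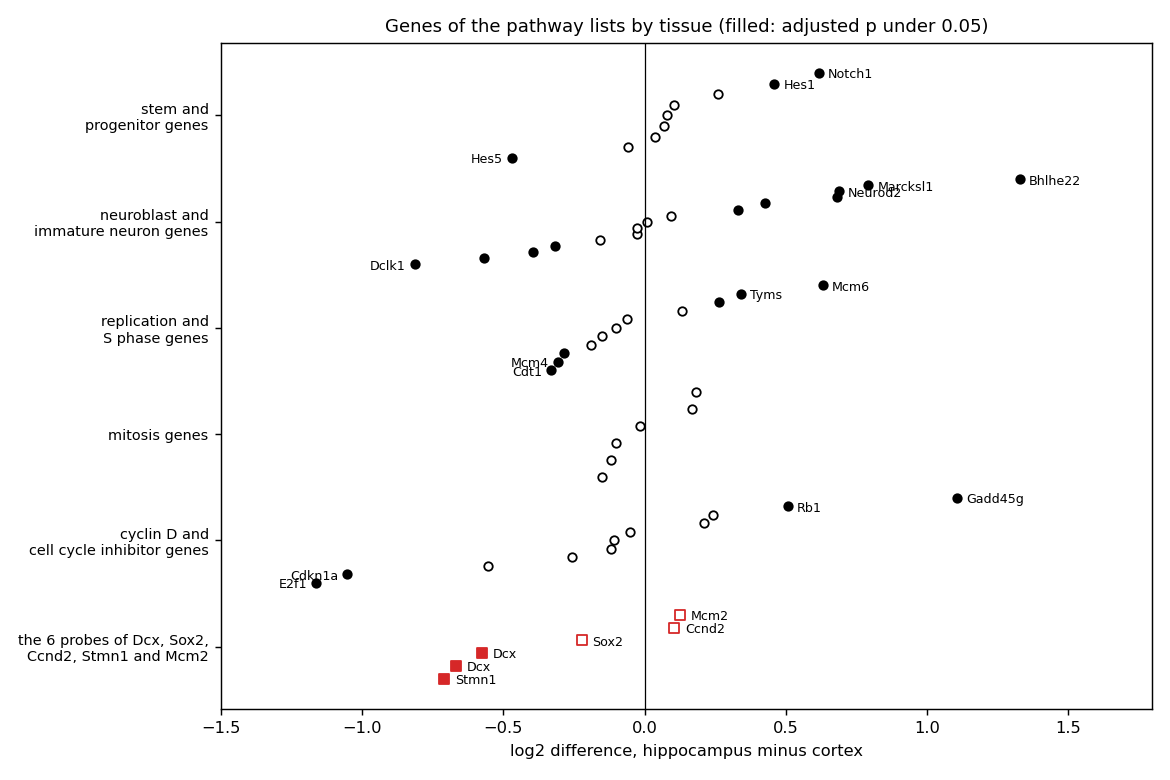
Log2 difference of hippocampus minus cortex (x axis) for the tested genes of 5 pathway lists (circles, 1 per gene, stacked by value) and for the 6 tested probes of the genes described (squares), filled where the adjusted p was under 0.05, with the names of up to 4 called genes per list. Called genes lie on both sides of 0 in 4 of the lists and are absent from the mitosis genes, while the called squares, Dcx and Stmn1, lie at -0.57 or below.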

How the data were processed

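RNA of 12 samples had been hybridised to Illumina MouseRef-8 arrays. The authors deposited linear bead intensity values without normalization and a detection p-value per probe, exported for the hippocampus with BeadStudio 3.4 and for the cortex with GenomeStudio 1.1.1, per the labels. No genome build was named for the probes. From these, log2 intensities were z-normalized per array and rescaled by the mean SD of the arrays in each fit. Levels in all 4 groups, marker sums and tissue values use a scale over all 12 arrays. The test, on probes detected (p up to 0.05) on 3 of 6 arrays of a tissue, was that of limma 3.58.1 in R 4.3.3 (lmFit, eBayes, Benjamini-Hochberg). The tissue comparison took probes passing in either tissue and the interaction those passing in both. The scripts were tested on simulated data. Figures and tables used Python 3.11.15, pandas 2.3.3 and matplotlib 3.10.9. Precision is limited by 3 arrays per group.

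The genes, lists and tests were chosen with earlier results of these data known. All 10 genes were named, and from each list at most 4 called genes with the largest difference. List genes were read by the probe with the highest mean signal.

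Replicate numbers come from the labels. In the hippocampus, deviations of AMI and vehicle arrays of the same number correlated at 0.29 to 0.61. Arrays of different numbers correlated there at -0.47 to 0.28, so the upper end nearly meets the same-number range and the pairing is uncertain. The main fits did not pair the arrays, and the fit with the replicate number as a block was an alternative. In the cortex same-numbered arrays correlated at -0.06 to 0.33, and across the tissues at -0.35 to 0.09 (AMI) and -0.04 to -0.02 (vehicle). Alternatives were quantile normalization, median centring, neqc (offset 16), leaving out the detection filter, a stricter filter (p up to 0.01 on every array of a tissue), the replicate block, the methods' t-test, both tissues in 1 fit, intensity trend with robust variances, 1 treatment alone, and leaving out each array.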

Additional observations from a re-analysis of the deposited data

How the results depend on the processing

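Over all alternatives run, 0 of the genes were called between AMI and vehicle in the hippocampus, in the cortex or in the interaction, including the fits with the replicate number as a block (0 in each). The tissue comparison called 2 genes, Dcx and Stmn1, and 2 to 3 when each array was left out in turn, Sox2 being added without cortex AMI replicate 3 or cortex vehicle replicate 2. With the replicate block it called 2. Without a detection filter it called 4, adding Neurod1 and Igfbpl1, which were detected on at most 1 array. In the vehicle arrays alone it called 1, Dcx, and there all calls were 2743 and in the AMI arrays alone 3573, against 5891 with both, from fewer arrays. Sox2 was also called with quantile normalization (-0.30) and neqc (-0.44), and Mcm2 with the methods' t-test (0.13, adjusted p = 0.0368 after Benjamini-Hochberg), the cause of which was not tested.

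Only values that were not called changed sign. The AMI difference of Sox2 in the hippocampus was -0.00948 with quantile normalization and -0.0145 with neqc, that of Ccnd2 in the cortex -0.0157 and -0.0183, and the tissue difference of Ccnd2 was -0.0238 in vehicle arrays alone. With single arrays left out, the hippocampal AMI differences ranged from -0.00136 to 0.136 (Dcx, ILMN_1228206), -0.0561 to 0.207 (Dcx, ILMN_2931623), -0.0327 to 0.121 (Sox2) and -0.0415 to 0.185 (Stmn1). The sign turned without AMI replicate 2 or vehicle replicate 1 for Dcx by ILMN_1228206, vehicle replicate 1 alone for Dcx by ILMN_2931623, AMI replicates 2 or 3 or vehicle replicate 1 for Sox2, and AMI replicates 2 or 3 or vehicle replicate 3 for Stmn1. In the cortex they ranged from -0.146 to 0.168 (Ccnd2, turned without AMI replicate 2 or vehicle replicate 3) and -0.0403 to 0.397 (Stmn1, turned without vehicle replicate 3). Interactions ranged from -0.214 to 0.0355 (Dcx, ILMN_2931623, turned without hippocampus vehicle replicate 2), -0.390 to 0.0772 (Stmn1, turned without cortex vehicle replicate 3) and -0.0130 to 0.0680 (Mcm2, turned without cortex vehicle replicate 2 or hippocampus AMI replicate 1). Signal over background limits what 7 of the 13 probes can show.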

Other observations

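For each probe detected on all 12 arrays, the probes of other genes with the most similar level were found by Pearson correlation over the 12 arrays, which share tissue, treatment and array brightness. The partners were picked as the highest among 10980 probes detected on all 12 arrays, so high values follow in part from the choice. Dcx (ILMN_1228206) was most like Gucy1a3 (0.979) and Plekha4 (0.976), and with the group means removed these were 0.690 and 0.849. Dcx (ILMN_2931623) was most like G6pc3 (0.976, then 0.872) and Mrm1 (0.969, then 0.881). Stmn1 was most like Rpl31 (0.983, then 0.968) and Eif5 (0.977, then 0.963). Sox2 was most like Pex7 (0.965, then 0.940) and Tes (0.935, then 0.915). Ccnd2 was most like Slc11a2 (0.927, then 0.957) and AI846148 (0.910, then 0.914). Among the readable genes themselves, Dcx and Stmn1 correlated at 0.810 by ILMN_1228206 over all arrays and at 0.012 with the group means removed, and by ILMN_2931623 at 0.849 and 0.338.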
